A study of Mus musculus with 4 samples.

Results

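The 51 genes described here are homeobox genes outside the Hox clusters, namely Six2 to Six6 and genes of the Irx, Dlx, Lhx, Nkx, Otx, Pitx, Gsx, Msx, En, Emx, Gbx, Alx, Barhl, Barx and Vax families. They were taken from a list of gene symbols, whose rule applies no threshold to the measured values. The list was, however, chosen with earlier results of these data known, so counts over it are descriptions. All 51 were found among the 22208 protein-coding gene symbols of the annotation. Occupancy of RYBP had been measured by chromatin immunoprecipitation and sequencing (ChIP-seq) in 2 ChIP samples and 2 inputs, all wild-type FLK1+ mesoderm from embryoid bodies. Embryoid bodies are aggregates in which mouse embryonic stem (ES) cells differentiate, here of the strain C57Bl/6 X Sv129 and, per the labels, at day 3.75. The design text adds that the cells were PDGFRa- and came from independent differentiations. The methods section instead describes magnetic isolation on FLK1, mentions no PDGFRa selection for ChIP, and names J1 as the wild-type ES line. Either way the cells are a culture model of early mesoderm isolated by surface receptor. The design text also names SCL as the precipitated protein, whereas the series title and the antibody label (anti DEDAF, another name of RYBP) name RYBP. The methods section dates the RYBP experiment slightly later than the labels. The samples were taken here as RYBP ChIP. The peak lists hold neither expression nor reads, so the labelled cell type could not be set against its markers. The authors called the peaks from reads, and no value was adjusted further for read depth here. The study lists fewer mapped reads for the ChIP of replicate 2, the list with more peaks, and for its input. The inputs had no processed file and were not analysed here.

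RYBP is a subunit of non-canonical Polycomb repressive complexes (PRC1), which place ubiquitin on histone H2A and are known to lie at CpG islands, the CpG-rich stretches found at many promoters. Homeobox genes encode transcription factors that bind DNA through a homeodomain and set the identity of tissues such as brain, eye, limb, gut and kidney. In cells of other lineages they are textbook targets of Polycomb repression, often over the whole gene and not just at its start.

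The sequences just upstream of 3 of these genes are shown because RYBP regions lay over all of them, although their CpG content differed widely. They are Vax1, the gene with the highest enrichment by the rule used below, and Irx3 and Six2, which the main text of the study names. Each is the stretch of 300 bases before the 5′ end of the gene, read 5′ to 3′ on the strand of the gene from the genome build mm9, with every CpG dinucleotide in capitals.
Vax1, chr19:59245627-59245926, minus strand: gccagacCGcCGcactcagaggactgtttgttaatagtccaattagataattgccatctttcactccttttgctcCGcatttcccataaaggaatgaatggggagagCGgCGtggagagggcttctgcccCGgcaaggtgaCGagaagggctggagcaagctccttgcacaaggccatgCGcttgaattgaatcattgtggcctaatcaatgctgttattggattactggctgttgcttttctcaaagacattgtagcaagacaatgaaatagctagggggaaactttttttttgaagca
Irx3, chr8:94325554-94325853, minus strand: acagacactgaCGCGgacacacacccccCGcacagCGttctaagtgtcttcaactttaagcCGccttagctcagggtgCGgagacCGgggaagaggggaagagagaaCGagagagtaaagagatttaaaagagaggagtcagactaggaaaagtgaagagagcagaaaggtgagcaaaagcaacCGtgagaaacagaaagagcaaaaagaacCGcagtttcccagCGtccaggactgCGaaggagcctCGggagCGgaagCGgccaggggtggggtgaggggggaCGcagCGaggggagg
Six2, chr17:86087595-86087894, minus strand: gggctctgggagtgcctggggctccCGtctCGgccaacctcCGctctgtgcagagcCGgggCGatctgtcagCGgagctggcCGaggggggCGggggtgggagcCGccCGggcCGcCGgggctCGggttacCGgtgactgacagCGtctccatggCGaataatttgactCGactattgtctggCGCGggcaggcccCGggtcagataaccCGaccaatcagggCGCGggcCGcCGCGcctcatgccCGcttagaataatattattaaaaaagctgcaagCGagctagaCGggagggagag
The Six2 stretch held 29 CpG and the Irx3 stretch 17, whereas the Vax1 stretch held 8. Over all 22208 genes the median was 9 CpG in this stretch, and over the 51 homeobox genes it was 17. The Vax1 stretch stood at the 47.6th percentile of all genes and the Six2 stretch at the 90.1st.

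Each ChIP sample had its own list of peaks, called by the authors. Replicate 1 held 14794 peaks and replicate 2 held 18154, and their union is a list of 22409 merged regions, of which 44.2% overlapped peaks of both lists. Fold enrichment is the linear ratio of ChIP to local background, averaged over each peak, and thus also depends on how far the peak was drawn. It had a median of 3.29 over all peaks of replicate 1 and 3.60 over those of replicate 2. Values were therefore compared within a list, and no test between conditions was possible with a single condition.

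The question asked of the data was where RYBP lay at these genes and how far it extended. All 51 genes had a merged region at their locus, defined as the gene body with 5 kb upstream, which leaves a 95% exact Clopper-Pearson interval of 93.0 to 100%. The share over all protein-coding genes was 57.1%, and over genes whose start was CpG-rich it was 83.8%. CpG-rich means here that the 500 bp before and after the 5′ end averaged 3 or more CpG per 100 bp. The interval covers counting error only, and genes are not replicates. A region called in both replicates was also present at all 51 loci, against 38.9% of all genes and 59.8% of those with a CpG-rich start. All 51 had such a region within 2.5 kb of an annotated start site too, against 36.8% of all genes and 58.1% of those with a CpG-rich start. Without the condition on both lists these background shares were 53.4% and 81.8%. All 39 Hox genes, the clustered relatives that pattern the body axis, passed each of these rules too. Of 58 further homeobox genes outside the Hox clusters, 55 had a region at the locus and 54 had one called in both replicates there. At a start site, 53 of the 58 had a region called in both replicates. High occupancy was thus not particular to the 51 genes.

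The regions at the homeobox loci were wide. A region of 4 kb or more lay at 41 of the 51 loci (80.4%, 95% interval 66.9 to 90.2), while 2.88% of all genes and 4.28% of genes with a CpG-rich start had one. Peaks of both lists covered 50% or more of the locus at 26 of the 51 (51%, 36.6 to 65.2), against 0.644% of all genes and 1.03% of those with a CpG-rich start. The Hox genes passed these thresholds at 37 and 31 of 39 genes. The 58 other homeobox genes outside the Hox clusters passed them at 37 and 16, and broad coverage was thus present there too.

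**Figure D1:**
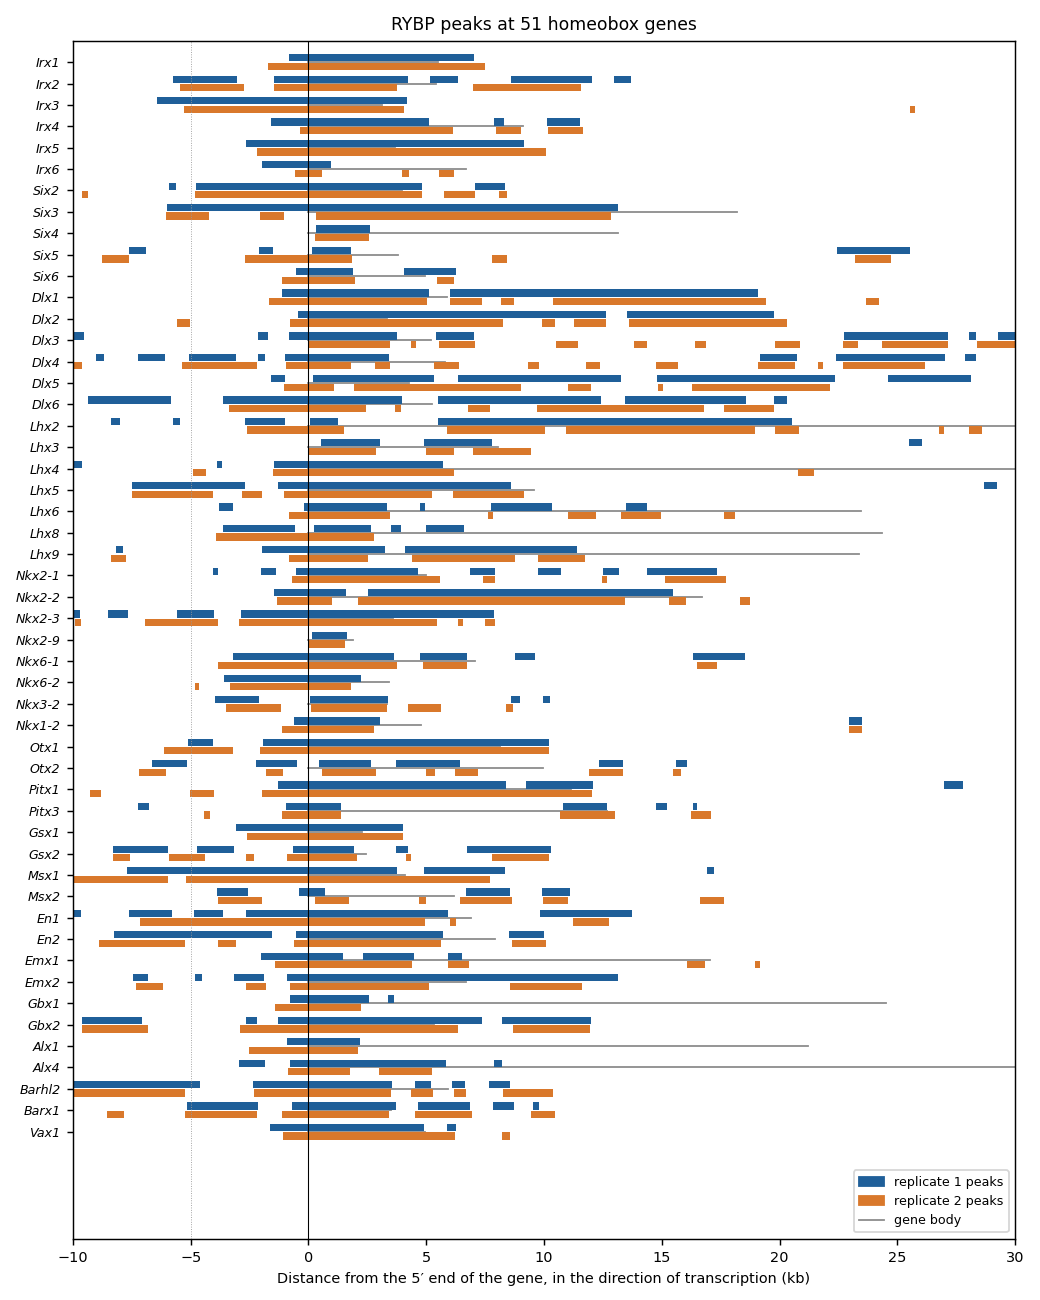
Peaks of replicate 1 (blue) and replicate 2 (orange) at the 51 genes, drawn from 10 kb before to 30 kb after the 5′ end of each gene in the direction of transcription, with the gene body as a grey line, the 5′ end as a solid line and the limit of 5 kb upstream as a dotted line. Peaks of both lists cover the stretch just inside the 5′ end in nearly every row, while the long genes Lhx4, Gbx1, Alx1 and Alx4 have long stretches without a peak.

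The number of calls in both lists fell at stricter values of the q-value that the authors' caller gave each peak. All 51 loci had a peak with a −log10 q of at least 2 in both lists, against 30.6% of all genes. At 3 the number was 48, against 19.2%, and at 4 it was 37, against 11.2%. At 5 it was 16, against 6.10%, with 18 genes in replicate 1 and 39 in replicate 2. The shares of all genes in the single lists were 7.75% and 15.9%, so replicate 2 gave more calls there too.

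Around the 5′ end, the share of bases under a peak was highest just inside the gene. In the bin of 250 bp that starts 500 bp downstream, peaks of replicate 1 covered 99.6% of the bases on average over the 51 genes and peaks of replicate 2 covered 98.3%. Over all genes the highest bin reached 27.3% in replicate 1 and 37.3% in replicate 2. Coverage at the homeobox genes was lopsided. Starting 5 kb downstream it was still 51.2% and 49.9% in the 2 replicates, while 5 kb upstream it was 23.2% and 26.0%. Over all genes it was 1.87% and 1.99% at that downstream distance. Genes with a CpG-rich start also leaned downstream near the start. They had 33.9% and 38.8% in the bin starting 500 bp downstream, and 17.2% and 19.3% in the bin ending 500 bp upstream. Starting 5 kb downstream they had 2.34% and 2.46%, and 5 kb upstream 2.02% and 2.20%. Among the 46 genes whose 5′ end lay in a region (35.8% of all genes), the region reached farther downstream than upstream in 35, with medians of 4214.5 bp downstream and 1688 bp upstream. That count was not made over all genes. Part of the coverage at the homeobox genes belongs to neighbouring members such as Dlx1 and Dlx2.

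**Figure D2:**
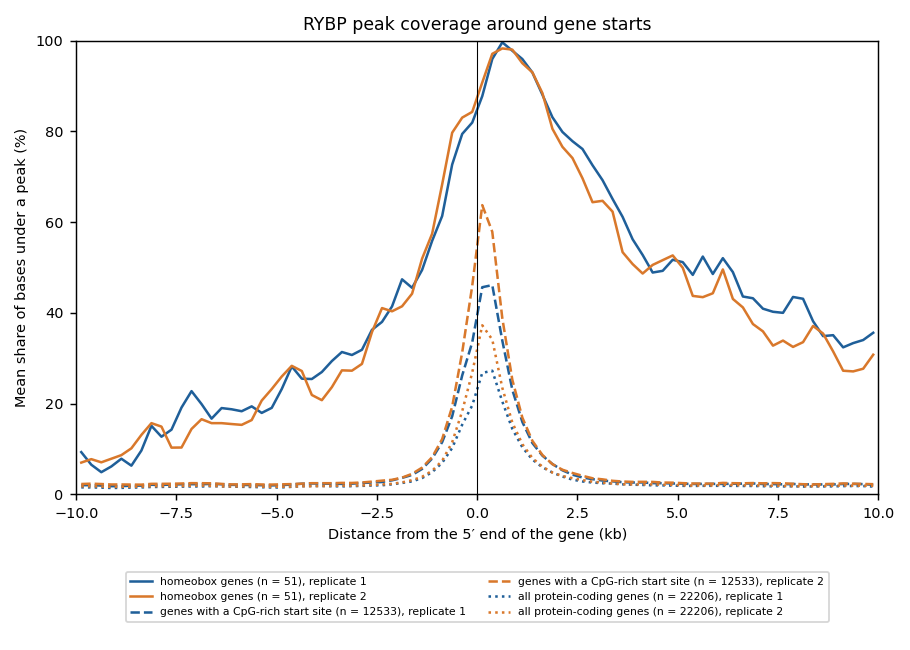
Mean share of bases under a peak (%) in bins of 250 bp against the distance from the 5′ end of the gene (kb), for the 51 homeobox genes (solid), genes with a CpG-rich start site (dashed) and all protein-coding genes (dotted), with replicate 1 in blue and replicate 2 in orange. The homeobox curves rise to 99.6% and 98.3% and fall slowly downstream, while those of all genes peak at 27.3% and 37.3% and are near their floor by 5 kb.

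The 5′ end itself lay outside every region in 5 genes, Six4, Lhx3, Nkx2-9, Nkx3-2 and Otx2. In each of them a region began inside the gene, at distances of 278 bp for Six4, 35 bp for Lhx3, 36 bp for Nkx2-9, 63 bp for Nkx3-2 and 442 bp for Otx2. Otx2, a regulator of forebrain and eye, has 7 annotated start sites, of which 4 lay in a region. Over all annotated start sites of the 51 genes, 94 of 96 had a region within 2.5 kb, and the exceptions were a start site of Pitx3 and a start site of Alx1. The 5′ end lay under a peak of replicate 1 in 42 genes, of replicate 2 in 43 and of both in 39, against 18.5% of all genes for both. The shares of all genes for single lists were not counted.

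The highest fold enrichment at each locus ran from 3.44 to 5.40 in replicate 1, with a median of 4.08, and from 3.63 to 6.45 in replicate 2, with a median of 4.79. All 51 values were above the median of all peaks in their own list. Each is a maximum over the peaks at its locus, however, and the share of all genes above that median was not counted. Over all genes with a peak, the same measure had medians of 3.53 and 3.92, also above the medians of all peaks. Over Hox genes it had medians of 4.0 and 4.57. Replicate 2 gave the higher value in 43 of the 51 genes, and 78.3% of all genes with peaks in both lists did the same. The 8 genes with the lower value in replicate 2 were Irx4, Six5, Six6, Dlx3, Lhx8, Nkx6-2, Msx2 and Gsx2. The SD between replicates had a median of 0.613 over the genes, and Spearman's rho between replicates was 0.33 (n = 51 genes that share the libraries, given as a description). The order of single genes by enrichment was thus loosely shared by the lists. The same rho was higher in the comparison lists, 0.49 over all genes with peaks in both lists, 0.59 over Hox genes and 0.59 over the other homeobox genes. The number of bases covered had a rho of 0.91 between replicates over the same genes, whose loci also share their length in both lists.

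**Figure D3:**
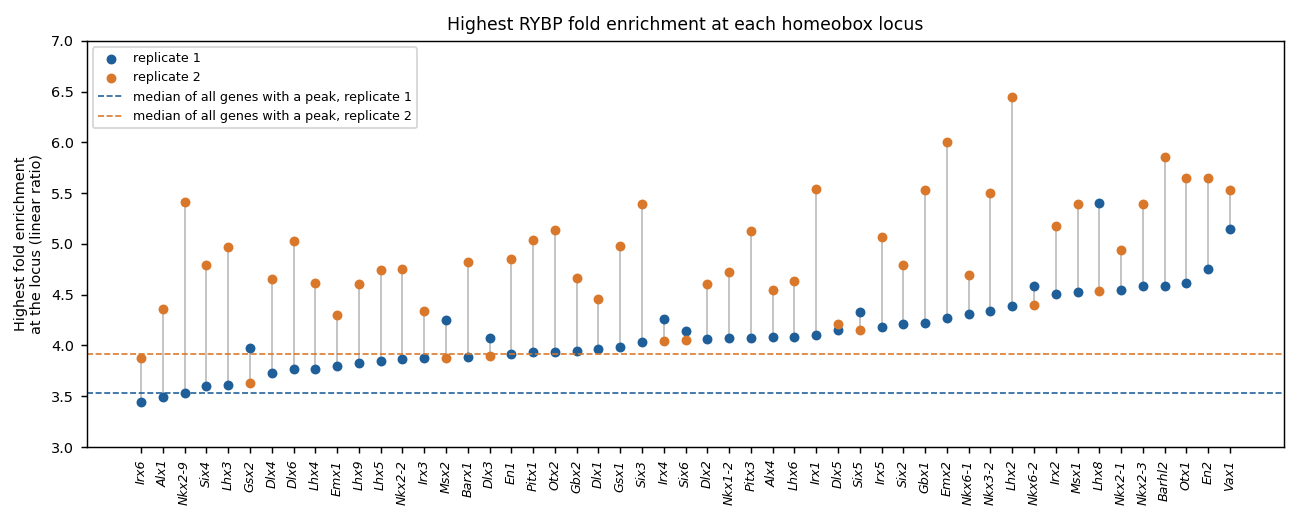
Highest fold enrichment (linear ratio) at each of the 51 loci in replicate 1 (blue) and replicate 2 (orange), joined by a grey line and ordered by the smaller value, with dashed lines at the medians of all genes with a peak. Vax1 is at the right end with 5.14 and 5.53, Irx6 is at the left end with 3.44 and 3.88, and 43 of the 51 orange points are above their blue partners.

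By the smaller of the 2 replicate values, Vax1 stood highest. Vax1, which acts in the ventral eye and optic nerve, lies at chr19:59240677-59245626 on the minus strand and was enriched 5.14-fold in replicate 1 and 5.53-fold in replicate 2 (98.0th and 95.5th percentiles of the lists). A region at chr19:59239362-59247244 covered all of its coding sequence and introns, although its start had just 2.70 CpG per 100 bp. En2, a regulator of midbrain and cerebellum (chr5:28492236-28500152), reached 4.75 and 5.65. Its widest region, 7360 bp at chr5:28483338-28490697, lay upstream of the gene and apart from the region over the start. Otx1, which acts in forebrain and inner ear (chr11:21894767-21902900), reached 4.61 and 5.65, with a region of 12296 bp over the whole gene.

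The rest of the genes with high values in both lists stood between the 82.9th and 98.7th percentiles of their lists. Barhl2, a regulator of spinal and retinal neurons, reached 4.59 and 5.86, and Nkx2-3, which acts in gut and spleen, reached 4.58 and 5.39. Nkx2-1, a regulator of thyroid, lung and ventral forebrain, reached 4.54 and 4.94, and Msx1, which acts in craniofacial and limb mesenchyme, reached 4.52 and 5.39. Lhx8, which acts in cholinergic neurons and oocytes, had 5.40 in replicate 1, the highest of the 51 genes there, and 4.54 in replicate 2. In Lhx8 the lists also split the locus differently, with 4 peaks in replicate 1 and 1 in replicate 2. Its values were averaged over a peak of 2439 bp in replicate 1 and of 6725 bp in replicate 2. Nkx2-3 held 2 peaks in each list and Msx1 a single peak at its locus in each.

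By the smaller of the replicate values, Irx6, Alx1, Nkx2-9 and Six4 stood lowest. Irx6 reached 3.44 in replicate 1 and 3.88 in replicate 2, which still put it at the 59.2nd and 63.2nd percentiles. Among the peaks of its own chromosome, 8, it stood at the 71.7th and 75.1st percentiles. Alx1, a regulator of craniofacial mesenchyme, reached 3.49 and 4.36, and Nkx2-9, which acts in the ventral neural tube, reached 3.53 and 5.42. Six4, which acts in muscle and sensory organs, reached 3.60 and 4.79. For Nkx2-9 and Six4 the lists disagreed, since Nkx2-9 stood at the 64.5th percentile in replicate 1 and the 94.7th in replicate 2, and Six4 at the 67.8th and 87.8th.

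Bases covered by merged regions had a median of 7563 bp per locus, from 1609 bp at Nkx2-9 to 20307 bp at Lhx2. Over all genes with a region the median was 1209 bp. Within single lists the medians over the 51 genes were 6708 bp in replicate 1 and 6723 bp in replicate 2, and 5783 bp were covered in both. As a share of the locus the median was 65.8%, against 3.58% for all genes with a region, whose loci are longer (median 29020 bp against 10937 bp). At 16 genes 75% or more of the locus was covered, and at 6 genes under 25%. These counts were not made over other genes. Among all genes with a region the 95th percentile of the share was 37.1%. For Hox genes the 25th percentile was already 78.7%, and for the other homeobox genes with a region the 75th percentile was 73.4%. Such wide coverage was thus not particular to the 51.

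**Figure D4:**
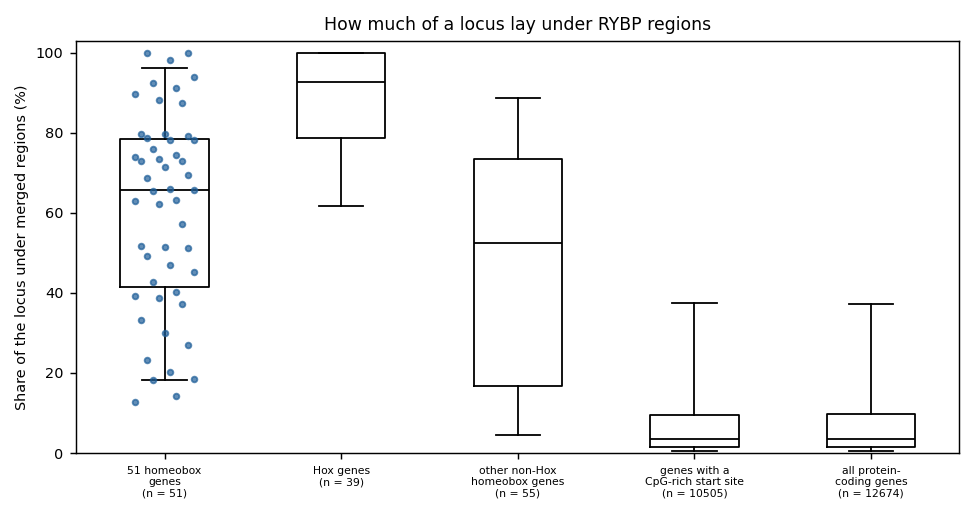
Share of the locus under merged regions (%) for genes with a region, as boxes from the 25th to the 75th percentile with the median as a line and whiskers at the 5th and 95th percentiles, for the 51 homeobox genes (each also drawn as a point), Hox genes, other non-Hox homeobox genes, genes with a CpG-rich start site and all protein-coding genes. The medians are 65.8%, 92.8%, 52.5%, 3.49% and 3.58%.

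Lhx2, a LIM-homeodomain regulator of cortex, eye and hair follicle, had the most bases covered in both lists, 15731 bp, with 17908 bp in replicate 1 and 18132 bp in replicate 2. A region of 4182 bp lay at its start, with an enrichment of 3.79 in replicate 1 and 3.80 in replicate 2. A separate region of 15315 bp at chr2:38200309-38215623, over exons and introns inside the gene, held the higher values of 4.39 and 6.45. The value of 6.45 was the highest of the 51 genes in replicate 2.

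Six3, a regulator of forebrain and eye (chr17:86012948-86031153), had 18161 bp covered in replicate 1 and 14315 bp in replicate 2, and all of the latter lay in both. Its region of 19219 bp was the widest at any of the 51 loci and also held the start of the noncoding RNA gene Six3os1. Replicate 1 called it as 1 peak and replicate 2 as 3, so the number of peaks at a locus was no measure of the extent. Over the 51 loci the lists held the same number of peaks at 26, more in replicate 2 at 15 and more in replicate 1 at 10.

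Nkx2-2, which acts in ventral spinal cord and pancreas, had 13411 bp covered in both lists, 15980 bp in replicate 1 and 14385 bp in replicate 2. Its 13906-bp region held the starts of 2 noncoding transcripts, among them Nkx2-2as, and reached 3.86 and 4.11. In replicate 2 the higher value of 4.76 lay in the neighbouring region of 3047 bp, where replicate 1 had 3.44. Pitx1, a hindlimb and pituitary regulator, had 11563 bp covered in both, Otx1 10993 bp and Lhx5, a forebrain regulator, 9796 bp. The Pitx1 region spanned 14069 bp at chr13:55925470-55939538 and covered the whole gene.

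Irx3 and Six2 were the most completely covered genes in both lists at once. Irx3, a regulator of neural tube, heart and limb patterning, lies at chr8:94322428-94325553 on the minus strand, and peaks of replicate 1 and of replicate 2 each covered 100% of its locus. The region over it, chr8:94321350-94331977, was called as a single peak in each list and also held the start of the noncoding gene D230002A01Rik. Its fold enrichment was 3.87 in replicate 1 and 4.34 in replicate 2, below the medians of the 51 genes. Chromosome 8 peaks were lower as a whole, with medians of 3.03 and 3.34, and within that chromosome Irx3 stood at the 86.9th and 85.3rd percentiles. Six2, which maintains nephron progenitors of the kidney (chr17:86083608-86087594), had 97.6% of its locus covered in replicate 1 and 98.2% in replicate 2. It reached 4.21 and 4.79, with a region at chr17:86082784-86092432. Msx1 came next, with 96.2% and 100%.

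The least covered loci were mostly long ones. Regions covered 12.9% of the Six4 locus, 14.3% of Gbx1, 18.1% of Alx1, 18.6% of Alx4, 20.1% of Lhx4 and 23.3% of Nkx2-9. The loci of Lhx4 and Alx4 were the longest, 45331 bp and 43956 bp, but the Nkx2-9 locus was the shortest of all, 6896 bp. Spearman's rho between the length of the locus and the share covered in both lists was -0.43 (n = 51 genes, a description, with length in both measures). Lhx2, with a locus of 35453 bp, stood apart with 57.3% covered. A region of 4 kb or more was missing at Irx6, Six4, Six6, Nkx2-9, Nkx3-2, Otx2, Pitx3, Msx2, Gsx2 and Gbx1, where the widest regions measured from 1609 bp at Nkx2-9 to 3961 bp at Gbx1.

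Of the 6 Irx genes, which encode TALE-class homeodomain proteins and lie in a pair of clusters, highest enrichments ran from 3.44 to 4.51 in replicate 1 and from 3.88 to 5.54 in replicate 2. Irx1, Irx3 and Irx5 had a single region each and all of their coding sequence covered. Irx5, which acts in heart and retina, had a region of 12759 bp and reached 4.18 and 5.06. Irx6 differed from the other members of the family, with 25.3% of its locus covered in replicate 1, 18% in replicate 2 and 9.94% in both.

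Six2, Six3, Six4, Six5 and Six6, whose products act in eye, muscle and kidney, were unevenly covered. The share of the locus covered in both lists ran from 12.5% at Six4 to 97.6% at Six2. Six5, a gene next to Dmpk, had 25.5% of its locus covered in replicate 1 and 51.7% in replicate 2, the latter by a single peak where replicate 1 had 2. Its enrichment, by contrast, was 4.33 in replicate 1, averaged over a peak of 1654 bp, and 4.15 in replicate 2, averaged over a peak of 4555 bp. Six6, a regulator of eye and pituitary, had 33.3% and 31.1% covered.

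The 6 Dlx genes, regulators of forebrain interneurons, branchial arches and limbs that lie in convergent pairs, were more alike, with 33.8 to 59.2% of each locus covered in both lists. Highest enrichments ran from 3.72 to 4.15 in replicate 1 and from 3.90 to 5.03 in replicate 2. The Dlx2 region of 13396 bp ran through the gene and on into the stretch between Dlx1 and Dlx2, and it ended 900 bp from the Dlx1 region. Likewise the Dlx5 region of 14840 bp was separated by 1539 bp from that of Dlx6. The genes of these pairs lie 9427 bp and 9236 bp apart, so most of the stretch between them was under a region. Dlx3 and Dlx4, 15159 bp apart, were linked less closely, with 4 short regions covering 23.8% of the gap between their own.

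The 7 Lhx genes, LIM-homeodomain regulators of neurons and of the gonad, had loci of 13038 to 45331 bp (median 28459 bp). Lhx2, Lhx3, Lhx6 and Lhx9 had a further region over part of the gene in both lists, apart from the one nearest the start. At Lhx4 and Lhx8 the further regions inside the gene were called in a single list. At Lhx5 the region over the start was the only one inside the gene. Highest enrichments ran from 3.61 to 5.40 in replicate 1 and from 4.54 to 6.45 in replicate 2. Lhx6, a regulator of cortical interneurons, had 7 separate regions, more than any other of the 51, of which 3 were called in both lists. Lhx5 was covered over 83.4% of its locus in replicate 1 and 76.2% in replicate 2, whereas Lhx4, a pituitary and motor neuron regulator, had 16.2% and 19.7%.

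The 8 Nkx genes ranged from 20.6% of the locus covered in both lists at Nkx2-9 to 86.8% at Nkx2-3. Their enrichments ran from 3.53 to 4.58 in replicate 1 and from 4.40 to 5.51 in replicate 2. Nkx6-1, which acts in beta cells and motor neurons, reached 4.31 and 4.69, with 73.0% and 78.6% of its locus covered. Nkx3-2, which acts in cartilage and spleen, reached 4.34 and 5.51, and the latter was the highest value of the family. Nkx6-2, a regulator of oligodendrocytes and spinal neurons, reached 4.58 in replicate 1 and 4.40 in replicate 2.

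Among Otx, Pitx and Gsx genes, Otx1 and Pitx1 were covered over most of the locus, as given above, and Pitx3 and Otx2 were not. Pitx3, which acts in lens and dopaminergic neurons, had 23.6% of its locus covered in replicate 1 and 27.0% in replicate 2. Otx2 had 44.8% and 29.2% covered. Gsx1 and Gsx2, regulators of the ventral forebrain, both had all coding sequence and introns covered, although Gsx2 had the lowest enrichment of the 51 genes in replicate 2, 3.63, against 3.97 in replicate 1.

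Of the 13 genes in the last group, Msx1, En1 and Barx1 were covered most widely. En1, which acts in midbrain and limb, had 82.2% of its locus covered in replicate 1 and 86.0% in replicate 2, and Barx1, which acts in stomach and teeth, 83.4% and 86.5%. Msx2, the close relative of Msx1, had 21.9% and 32.1%, so these paralogues differed by more than the lists did. Emx2, a regulator of cortex and urogenital tract, reached 4.27 in replicate 1 and 6.01 in replicate 2. Gbx1 and Gbx2, regulators of spinal cord and hindbrain, both had peaks over the start, but 12.2% and 12.4% of the Gbx1 locus was covered against 68.5% and 79.8% of the Gbx2 locus.

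In all, 108 distinct merged regions lay at the 51 loci, and none was shared by a pair of them. A single region was present at 18 loci, 2 regions at 16, and 3 or more at 17. Of the 108 regions, 77 (71.3%) overlapped peaks of both lists, against 44.2% of all merged regions. These 77 held 96.6% of the bases in the 108. The rest, 14 called in replicate 1 and 17 in replicate 2, were short, from 193 to 1600 bp with a median of 443 bp, and had enrichments of 2.84 to 3.84 in replicate 1 and 3.06 to 3.71 in replicate 2. In width, the 108 regions had a median of 3037.5 bp against 766 bp for all merged regions, and 46 of the 644 regions of 4 kb or more in the genome lay at these 51 loci.

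Where 2 of the genes are neighbours within 1 Mb, the sequence between their own regions was covered to very different degrees. Of 11 such pairs, Dlx1 with Dlx2 and Dlx6 with Dlx5 were the closest. Between the outermost regions of Irx3 and Irx5, 547.1 kb apart, 0.240% of the sequence was covered, and between those of Irx1 and Irx2, 657.6 kb apart, 0.116%. Between Irx2 and Irx4 the share was 1.04%, and between Six3 and Six2, 56.7 kb apart, it was 4.67%. The stretch between Six6 and Six4 was covered over 8.97%, by 2 regions that were both called in both lists, and that between Vax1 and Emx2 over 3.25%, by 7 regions of which 4 were in both. No region lay in the 70.7 kb between those of Nkx2-1 and Nkx2-9.

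By annotation, coverage was above that of all genes with a region in each class of sequence, by the largest ratio in introns. Regions covered 80.7% of the coding sequence of the 51 genes, 55.7% of their UTRs, 46.7% of their introns and 52.1% of the 5 kb upstream. Over all genes with a region these shares were 12.5%, 12.6%, 1.39% and 11.6%. The loci of all genes with a region are longer (median 29020 bp against 10937 bp), and the part of length in these ratios was not tested. Hox genes had 98.7% of coding sequence and 83.7% of introns covered, and the other homeobox genes with a region 76.4% and 19.5%. The coding sequence was covered completely in 32 of the 51 genes, a count not made over all genes, and the lowest share was 6.50%, at Lhx4.

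Every CpG island computed at these loci was met by a region. Islands were runs of 200-bp windows with at least 50% GC and an observed to expected CpG ratio of at least 0.6, with a length of at least 500 bp. All 144 islands at the 51 loci overlapped a merged region (95% exact interval 97.5 to 100%), against 51.2% of all islands in the genome and 81.8% of those within 2.5 kb of a start site. Regions covered 98.4% of the island bases at the homeobox loci, against 67.8% at all genes with a region.

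The regions also reached far beyond the islands. Outside islands, 41.0% of the bases at the homeobox loci were covered, against 1.48% at all genes with a region, and 61.3% of all covered bases at these loci lay outside islands, against 50.3%. The regions called in both lists were less dense in CpG than such regions in general, with medians of 4.19 and 6.02 CpG per 100 bp. Regions of 4 kb or more had like medians at the homeobox loci and in the genome, 4.19 and 4.22. Of the 108 regions, 39 held no island sequence, and 11 of these were called in both lists, such as the region of 3092 bp upstream of Nkx2-3 with 3.67 in replicate 1 and 4.28 in replicate 2. Regions without island sequence were not counted over all merged regions, so these counts describe the 108 alone. The median share of island sequence was 30.5% over the 108 and 27.1% over all merged regions.

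**Figure D5:**
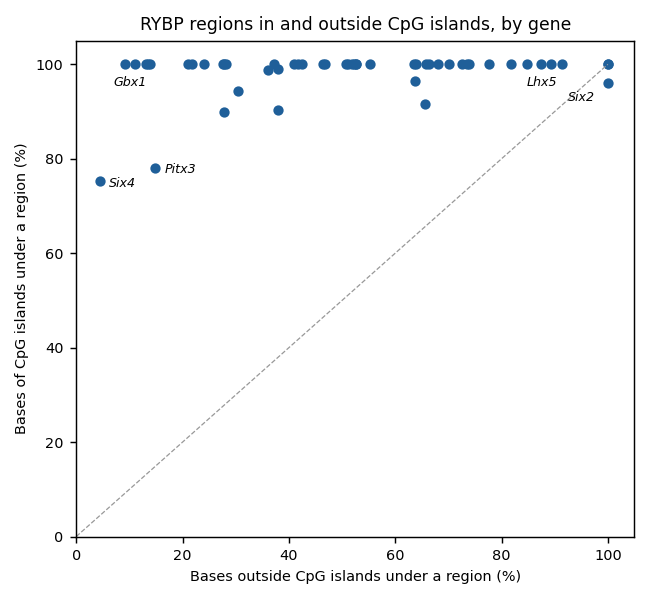
Share of bases in CpG islands under a merged region (%) against the share of bases outside islands under a region (%), with a point for each of the 51 loci and a dashed line where both are equal. In 41 genes the islands are covered completely while coverage outside them runs from 9.10% at Gbx1 to 100%, and Six4 is the lowest on both axes with 75.3% and 4.46%.

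A CpG-rich start site was present in 47 of the 51 genes, against 56.4% of all genes, and the other 4 were Otx2, Lhx3, Vax1 and Gbx2 with 2.40, 2.5, 2.70 and 2.90 CpG per 100 bp. All 4 had regions in both lists, and all held an island in the locus. Island bases and bases covered in both lists had a Spearman's rho of 0.71 over the 51 loci, a description of loci that also differ in length. CpG density at the start had a rho of 0.22 with the enrichment in replicate 1 and 0.10 with that in replicate 2, which is too weak to order the genes. Of the genes whose upstream sequences are printed above, Vax1 with 8 CpG had 5.14 and 5.53, and Six2 with 29 CpG had 4.21 and 4.79. This pair does not test the relation, because Vax1 was picked for its high enrichment. Its CpG counts also cover the upstream side alone, whereas the density at the start covers both sides.

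Several regions could not be assigned to the homeobox gene alone. A noncoding transcript started within the region at 13 of the 51 loci, among them Six3os1, Emx2os, Nkx2-2as, and Dlx1as and Dlx6os1 in the Dlx pairs. Regions at Gbx2, Otx1, Six5, Six6, Pitx3, Nkx1-2 and Irx5 also overlapped the locus of another coding gene, such as Dmpk at Six5. Neither kind of overlap was counted over all genes, so both are given as a description of these loci alone. Peaks give no strand, so to which of these transcripts RYBP occupancy belonged was not tested.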

How the data were processed

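Chromatin of 2 RYBP ChIP samples and 2 inputs was sequenced, and groups were taken from the labels. Per the labels and methods, the authors aligned reads to mm9 with Bowtie 1.1.2b and called peaks in each replicate with MACS2 2.0.10 under the broad option. The deposited lists give a fold enrichment (a ratio, averaged over a peak), −log10 of the p-value and of the q-value, and a score equal to 10 times −log10 q. The authors also deposited a merged list of positions, the union of both lists, whose starts differ from those of replicate 2 by 1 bp, so that a replicate can exceed the merged bases by 1.

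Loci came from the GENCODE annotation of the same build, as the gene body with 5 kb upstream. Overlap meant at least 1 bp, and a region was in both lists when a peak of each overlapped it. CpG counts and islands were computed from the genome. The overlap code was tested on simulated data. Python 3.11.15, pandas 2.3.3 and scipy 1.17.1 were used. Fully described genes were the 8 with the largest smaller replicate enrichment, the 6 with most bases covered in both, Irx3, Six2 and the 4 with the lowest values. Others were named after their values were seen. Members and lists were chosen with earlier results of these data known. Alternatives were peak thresholds, locus and window sizes, island definitions and leaving out a replicate. Upstream sequences chosen by the same rule for other genes are not reported here.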

Additional observations from a re-analysis of the deposited data

How the results depend on the processing

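The counts of loci with a region, with a region in both lists and with a region at a start site were 51 with −log10 q of at least 2 and with a fold enrichment of at least 3. Other locus and overlap sizes left both locus counts at 51, other windows left the start-site count at 51, and with either replicate alone the counts of loci and of start sites with a region were 51. With −log10 q of at least 4, a threshold chosen after seeing the data, 47 loci had a region and 37 had one in both lists. The median of bases covered, 7563 bp, was 7200 bp with −log10 q of at least 2, 5783 bp in both replicates, 8438 bp with 10 kb upstream, and 6708 to 6723 bp with either replicate left out. The share of islands with a region, 100%, was 91.3% with islands of at least 200 bp, 99.3% where 50% of the island had to be covered, and 98.6 to 99.3% with either replicate left out; the causes were not tested. Medians of enrichment moved by less than the SD between replicates of 0.507. Of 114 values of the named genes, Six3 in replicate 2 alone changed, from 5.39 to 4.58 without the upstream sequence. No paired analysis was possible because the ChIP samples form a single group and the inputs have no values. No value was adjusted here for read depth beyond the authors' peak calling, and peaks absent from a list may be below its threshold.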
